A study of Mus musculus with 8 samples.

Results

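The cell cycle genes described here are 45 genes whose transcripts rise while a cell copies its DNA or divides, followed in single cells of the distal colonic mucosa of 8 mice. They were taken by gene symbol from the table of 31053 genes, and all 45 were found there. By role, 20 serve DNA replication and 23 serve mitosis, and Stmn1 and Hmgb2 were put in neither group. The 4 KO-labelled mice (mice 2, 3, 6 and 7) carried Vil1::Cre with the floxed Spry2-f/f alleles, so that recombination is driven by the villin promoter in intestinal epithelium. The 4 WT-labelled mice (mice 1, 4, 5 and 8) were Spry2-f/f littermates without Cre. All were 8 weeks old, both groups carried the floxed alleles, and each mouse gave 1 library. The design sets epithelial loss of Sprouty2, which restrains signalling from growth factor receptors, against littermate controls.

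A cell that enters division first licenses its replication origins and makes deoxynucleotides, then copies its DNA, and later builds a spindle that pulls the chromosomes apart. E2F factors drive the genes of the first steps, and the B-MYB, FOXM1 and DREAM complexes act on the genes of the later ones. In the colon, division is known mainly from stem and progenitor cells of the lower crypt, while absorptive cells nearer the surface have left the cycle. Among immune cells it is known from germinal centre B cells, early plasma cells and activated T cells.

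The matrix held 53080 cells, and 1316 cells with a doublet name from the authors are not used. A cell carried between 500 and 113660 UMIs, the molecular tags that count captured transcripts once each. UMIs per mouse totalled 17.04 to 37.3 M, and 356 of 52717 distinct barcodes occurred in 2 or more mice. Epithelial cells with 50% or more mitochondrial UMIs made up 53.5 to 79.6% in mice 1 to 4 and 11.1 to 37.2% in mice 5 to 8, a division that crosses the genotypes. Spry2 stood at 10.4 to 49.3 CPM (UMIs of a gene per 1 M UMIs of its cell set and mouse) in KO-labelled and 11.2 to 37.6 CPM in WT-labelled epithelium, so the transcript tags do not check the label. The authors' subtype names were empty for KO-labelled epithelium, and epithelial cells are therefore given by the authors' cluster numbers. UMIs tag 1 end of each transcript, so CPM values were not divided by gene length.

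The promoters of the members differed in the motifs they held, and 5 of them are shown as examples. Some of their windows share a combination of the 3 motifs searched and some differ. RefSeq's promoter table (GRCm38.p6, 250 bases before to 50 after a start site) matched 34 of the 45 genes. The E2F motif was searched as TTTCGCGC, TTTGGCGC, TTCGCGCC or TTGGCGCC, the CHR (cell cycle genes homology region) as TTTGAA or TTTAAA, and the CCAAT box as CCAAT, all on both strands. The windows below end at the base before the start site and run 5′ to 3′ on the gene's strand, with every match in capitals; a match on the other strand appears as its reverse complement, and overlapping matches run together.
Mcm6 (chr1:128359706-128359855, minus strand): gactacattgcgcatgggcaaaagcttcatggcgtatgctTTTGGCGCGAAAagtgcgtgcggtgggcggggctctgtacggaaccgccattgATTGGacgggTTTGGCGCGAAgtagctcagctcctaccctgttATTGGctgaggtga
Mcm5 (chr8:75109359-75109508, plus strand): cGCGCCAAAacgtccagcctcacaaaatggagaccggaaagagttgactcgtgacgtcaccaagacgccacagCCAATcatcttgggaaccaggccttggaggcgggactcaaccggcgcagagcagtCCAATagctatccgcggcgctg
Cdk1 (chr10:69352913-69353062, minus strand): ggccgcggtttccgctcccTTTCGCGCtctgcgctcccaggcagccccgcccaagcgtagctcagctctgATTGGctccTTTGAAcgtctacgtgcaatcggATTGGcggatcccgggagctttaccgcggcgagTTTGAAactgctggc
Plk1 (chr7:122159285-122159434, plus strand): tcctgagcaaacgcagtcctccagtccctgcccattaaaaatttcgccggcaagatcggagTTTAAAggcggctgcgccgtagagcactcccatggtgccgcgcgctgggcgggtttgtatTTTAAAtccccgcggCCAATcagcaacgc
Cdc20 (chr4:118437344-118437493, minus strand): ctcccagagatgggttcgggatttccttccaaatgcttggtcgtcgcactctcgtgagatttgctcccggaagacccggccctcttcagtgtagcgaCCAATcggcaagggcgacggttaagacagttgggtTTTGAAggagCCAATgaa

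Mcm6 and Mcm5, subunits of the replicative helicase, showed E2F and CCAAT matches and no CHR in these windows. Outside its window, the full promoter of Mcm5 did hold a CHR match, and that of Mcm6 did not. Plk1, a mitotic kinase, and Cdc20, an activator of the anaphase-promoting complex, showed CHR and CCAAT matches and no E2F. Cdk1, the kinase that drives entry into mitosis, showed all 3. Over the full promoters, a CHR together with a CCAAT box lay in 14 of 17 mitosis members (82.35%), 5 of 16 replication members (31.25%) and 12.2% of 27025 genes in the table. An E2F match lay in 5 of 16 replication members (31.25%), 2 of 17 mitosis members (11.8%) and 2.05% of all genes. The replication members with an E2F match were Cdt1, Mcm3, Mcm5, Mcm6 and Mcm7, and the mitosis members were Ccnb1 and Cdk1. CHR alone lay in 15 of 17 mitosis members (88.2%), 7 of 16 replication members (43.75%) and 30.6% of all genes. A match describes letters, not a bound site.

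Transcripts of the members were concentrated in a few cell sets. To compare cells of unequal depth, each cell was thinned to 1000 UMIs and counted as dividing when at least 3 different replication or mitosis members remained. This left out cells with fewer UMIs, among them 5689 of 23787 epithelial and 1962 of 14700 B cells. Of the cells deep enough, 1112 were counted as dividing: 556 epithelial cells, 386 B cells, 118 T cells, 42 macrophages, 8 fibroblasts and 1 each of blood and lymphatic endothelium.

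The highest share was in the T cells that the authors named proliferative, where 67 of 77 cells passed (87.0%, 95% exact interval 77.4 to 93.6%). The authors' B progenitors followed with 183 of 312 cells (58.7%, 53.0 to 64.2%). These B cells carried S1pr2, a receptor that holds B cells in germinal centres, at 125 ± 26.1 CPM (SD, n = 5 mice), against 1.30 ± 1.97 CPM in mature B cells (n = 8). Of 10942 mature B cells, 89 passed (0.813%), and 80 of them held exactly 3 members. Plasma cells, the antibody secretors, had 114 of 1484 dividing (7.68%, 6.38 to 9.16%) and macrophages 42 of 613 (6.85%, 4.98 to 9.15%). Intervals cover counting error only. The authors' clusters were made from all genes, cycle genes included. A high or low share of a set is therefore partly built in, and shares were not tested between sets.

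Within the epithelium, most dividing cells lay in 4 clusters. Cluster 16 had 164 of 630 cells dividing (26.0%), cluster 14 had 310 of 1637 (18.9%), cluster 18 had 32 of 369 (8.67%) and cluster 5 had 41 of 3608 (1.14%). Cluster 14 carried Epcam at 1820 ± 198 CPM and the mucin Muc2 at 7723 ± 3074 CPM, and cluster 16 carried Epcam at 1229 ± 456 CPM and Muc2 at 72.4 ± 42.4 CPM (SD, n = 8 each). In WT-labelled cells, which alone have names, 211 of 2350 stem-progenitor cells (8.98%), 48 of 401 secretory-progenitor cells (11.97%) and 33 of 254 deep crypt secretory cells (DCS; 12.99%) were dividing. Of these 33 deep crypt secretory cells, 28 came from mouse 8, and so did 27 of the 32 dividing cells of cluster 18.

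Cells that have left the cycle set the background of the count. In cluster 4, where Krt20, a keratin of surface cells, stood at 942 ± 179 CPM, 0 of 3370 cells passed, which allows a share of up to 0.0890%. Of the authors' enterocytes 1 of 2534 passed, and 0 of 264 goblet cells and 0 of 109 tuft cells did, which allows up to 1.14% and 2.75%. Fibroblasts had 8 of 5799 (0.138%). Without thinning the shares were higher in sets of deep cells: 34.1% in plasma cells, 38.0% in cluster 14, 14.6% in cluster 5 and 25.2% in macrophages.

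**Figure D1:**
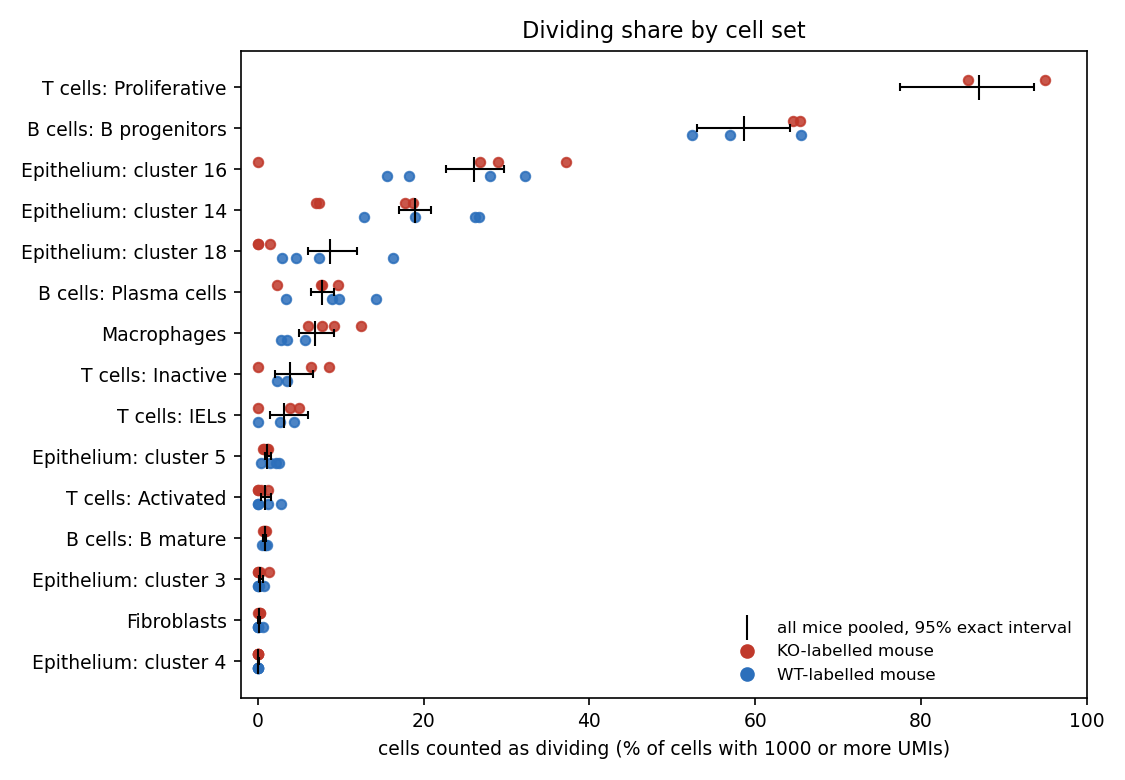
Share of cells counted as dividing (x axis, % of cells with 1000 or more UMIs) in 15 cell sets. Points are mice with at least 20 such cells, red KO-labelled and blue WT-labelled, and black marks are all mice pooled with their 95% exact interval; proliferative T cells and B progenitors stand apart at 87.0% and 58.7%, and cluster 4 at 0.

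The role groups followed the same order of cell sets, with exceptions. Among the licensing and fork genes, Mcm6 stood at 302 ± 31.7 CPM in B progenitors (SD, n = 5) and 34.1 CPM in cluster 14, and at 13.2 ± 3.26 CPM in fibroblasts (n = 8). Pclaf, a partner of the replication clamp PCNA, ran from 793 ± 147 CPM in B progenitors over 121 CPM in cluster 16 and 67.3 CPM in cluster 14 to 1.06 CPM in fibroblasts. Of the nucleotide synthesis genes, Rrm2, the regulated subunit of ribonucleotide reductase, ran in the same order, from 165 CPM in B progenitors over 22.4 CPM in cluster 16 and 18.5 CPM in cluster 14 to 2.03 CPM in fibroblasts. The S phase cyclins Ccne1 and Ccne2 were sparse, at 21.2 and 16.9 CPM in B progenitors and 2.09 and 2.95 CPM in epithelium.

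Among the mitosis genes, Mki67, a coat protein of mitotic chromosomes, stood at 749 ± 211 CPM in B progenitors (n = 5), 222 ± 79.7 CPM in cluster 14, 131 ± 55.8 CPM in plasma cells and 69.2 ± 21.2 CPM in cluster 16 (n = 8 each). It stood at 4.25 ± 3.42 CPM in mature B cells, 1.69 ± 1.13 CPM in cluster 4 and 1.46 ± 0.696 CPM in fibroblasts, and these 3 neighbours did not differ beyond their spread. Clusters 14 and 16 ranked the mitosis members differently. Cenpf, a kinetochore protein, had 126 ± 53.4 CPM in cluster 14 and 34.97 ± 21.6 CPM in cluster 16, and Cenpe, a kinetochore motor, 65.6 ± 30.4 and 20.6 ± 16.8 CPM. Cdk1 lay the other way, at 46.0 ± 18.7 CPM in cluster 14 and 104 ± 57.6 CPM in cluster 16. The 2 clusters also differed in depth, with a median of 5398 and 1037 UMIs over all their cells. The part of depth in these levels was not tested.

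Stmn1, which destabilises microtubules, and Hmgb2, a chromatin protein, had the highest CPM of the members in B progenitors and in epithelium. Hmgb2 stood at 2226 ± 446 CPM in B progenitors and Stmn1 at 1096 ± 110 CPM (SD, n = 5). Hmgb2 still held 154 ± 51.0 CPM in mature B cells, while Stmn1 held 42.4 ± 18.1 CPM there.

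Replication and mitosis members were not in balance across the cell sets. Summed over each group, the log2 ratio of replication to mitosis CPM (10 CPM added to each sum) was -1.46 ± 0.60 in cluster 14 and -0.78 ± 0.76 in cluster 16 (SD, n = 8). In B progenitors it was -0.41 ± 0.22 (n = 5), in plasma cells -0.76 ± 0.42, in T cells -0.09 ± 0.38 (n = 8 each) and in macrophages 0.18 ± 0.44 (n = 7). Sets with few dividing cells lay on both sides. The ratio was 0.65 ± 0.16 in mature B cells, 0.92 ± 0.54 in cluster 4 and 2.60 ± 0.22 in fibroblasts, but -1.09 ± 0.59 in cluster 3 and -0.08 ± 1.02 in cluster 6 (n = 8 each), and -0.35 ± 0.74 in cluster 10 (n = 6). Fibroblasts held 162 ± 14.02 CPM of replication members and 18.7 ± 5.16 CPM of mitosis members.

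The fibroblast sum came mainly from Tipin, a fork protection factor, at 36.6 ± 9.82 CPM, Pcna, the replication clamp, at 34.0 ± 3.85 CPM, and Rrm1, the large subunit of ribonucleotide reductase, at 22.1 ± 7.51 CPM. Every mouse had 26.8 CPM or more of Tipin and 27.6 CPM or more of Pcna in fibroblasts. Other members also did not follow the dividing share of the cell sets. Cenpa, the centromeric histone, stood at 137 ± 18.5 CPM in mature B cells and 137 ± 28.0 CPM in T cells, above its 76.9 ± 36.7 CPM in cluster 14. Cdt1, an origin licensing factor, had 54.8 ± 11.3 CPM in mature B cells and 52.1 ± 10.9 CPM in B progenitors, which did not differ beyond the spread. Dna2, a nuclease-helicase, had 43.0 ± 24.4 CPM in macrophages (151 UMIs, n = 7) and 33.4 ± 14.4 CPM in B progenitors (n = 5), against 1.21 to 2.96 CPM in T cells, mature B cells, fibroblasts and cluster 16. Its macrophage values were 15.5, 60.3, 57.8 and 34.4 CPM in KO-labelled mice 2, 3, 6 and 7 and 82.5, 21.4 and 29.4 CPM in WT-labelled mice 1, 4 and 5, and the groups overlapped.

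**Figure D2:**
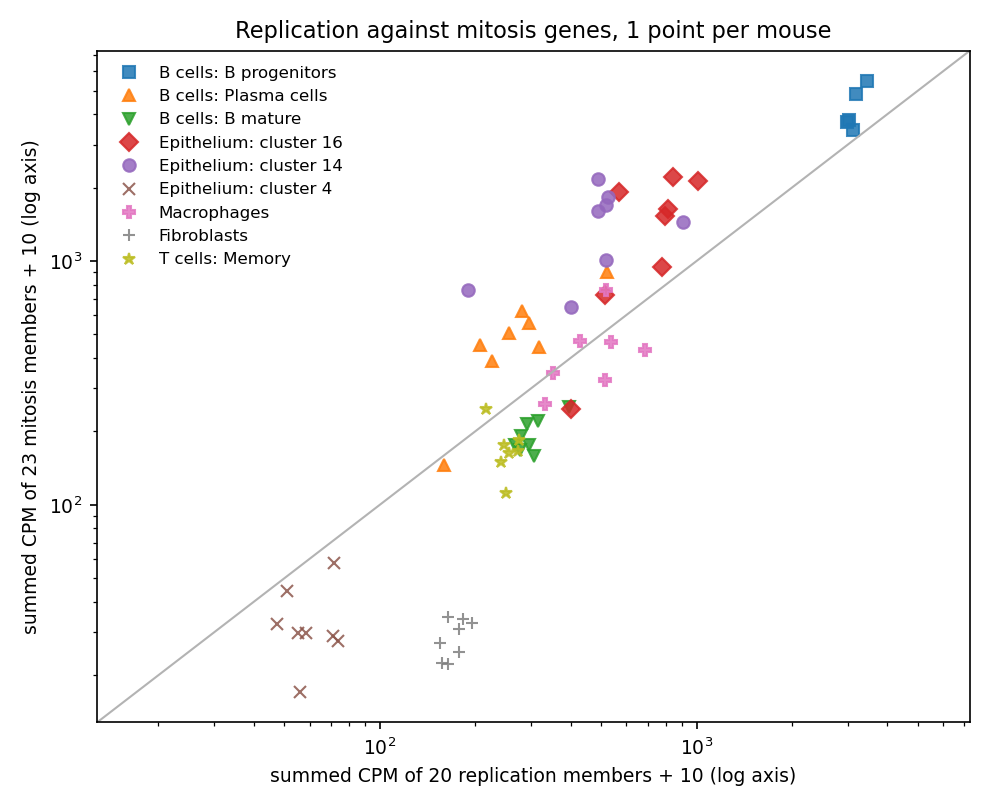
Summed CPM of the 23 mitosis members (y axis) against the 20 replication members (x axis), 10 CPM added to each, on log axes, 1 point per mouse with at least 20 cells in 9 cell sets; the grey line marks equal sums. Cluster 14 lies above the line, fibroblasts lie below it at 162 against 18.7 CPM on average, and B progenitors stand at the upper right.

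Single dividing cells were then divided by which group had more UMIs after thinning. Mitosis-rich cells made up 440 of 556 dividing epithelial cells (79.1%, 95% exact interval 75.5 to 82.4%) and 85 of 114 dividing plasma cells (74.6%, 65.6 to 82.2%). In B progenitors they made up 97 of 183 (53.0%, 45.5 to 60.4%) and in macrophages 22 of 42 (52.4%, 36.4 to 68.0%). The few mature B cells that passed were mostly replication-rich, with 14 of 89 mitosis-rich (15.7%). With 20 replication and 23 mitosis members of unequal abundance, the share is a scale for comparing cell sets and not a phase call.

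Each member was next compared between mitosis-rich and replication-rich cells defined by the other replication and mitosis members, so that no gene placed itself. All 20 replication members were lower and all 23 mitosis members higher in mitosis-rich cells, pooled over the mice and cell types. With all replication and mitosis members in the split, B cells gave 168 replication-rich and 196 mitosis-rich cells, and epithelium 91 and 440. The part of cell type in the pooled ratios was not tested. The lowest values were the helicase subunits Mcm4 (log2 ratio -1.52, with 10 CPM added) and Mcm6 (-1.47) and cyclin E1, Ccne1 (-1.37). The highest were Cenpf (2.80), Ube2c, the ubiquitin-conjugating enzyme of the anaphase-promoting complex (2.71), its activator Cdc20 (2.60) and cyclin B1, Ccnb1 (2.48). Ube2c had 605 CPM in mitosis-rich and 83.7 CPM in replication-rich cells.

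Members near the middle were Tyms, thymidylate synthase (-0.01), Tk1, thymidine kinase (-0.09), Top2a, the topoisomerase that untangles chromosomes (0.44), and Mki67 (0.82). Of the members in neither group, Stmn1 lay at 0.13 and Hmgb2 at 0.79. In epithelium alone, all replication members lay below 0 and all mitosis members above 0. In T cells, 10 of the 20 replication members lay above 0, among them Pclaf (1.26, from 275 UMIs in 43 replication-rich and 64 mitosis-rich cells). The value of Dna2 (1.39) rested on 6 UMIs and that of Cdc6, an origin licensing factor (1.18), on 21. No test was made of these ratios.

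**Figure D3:**
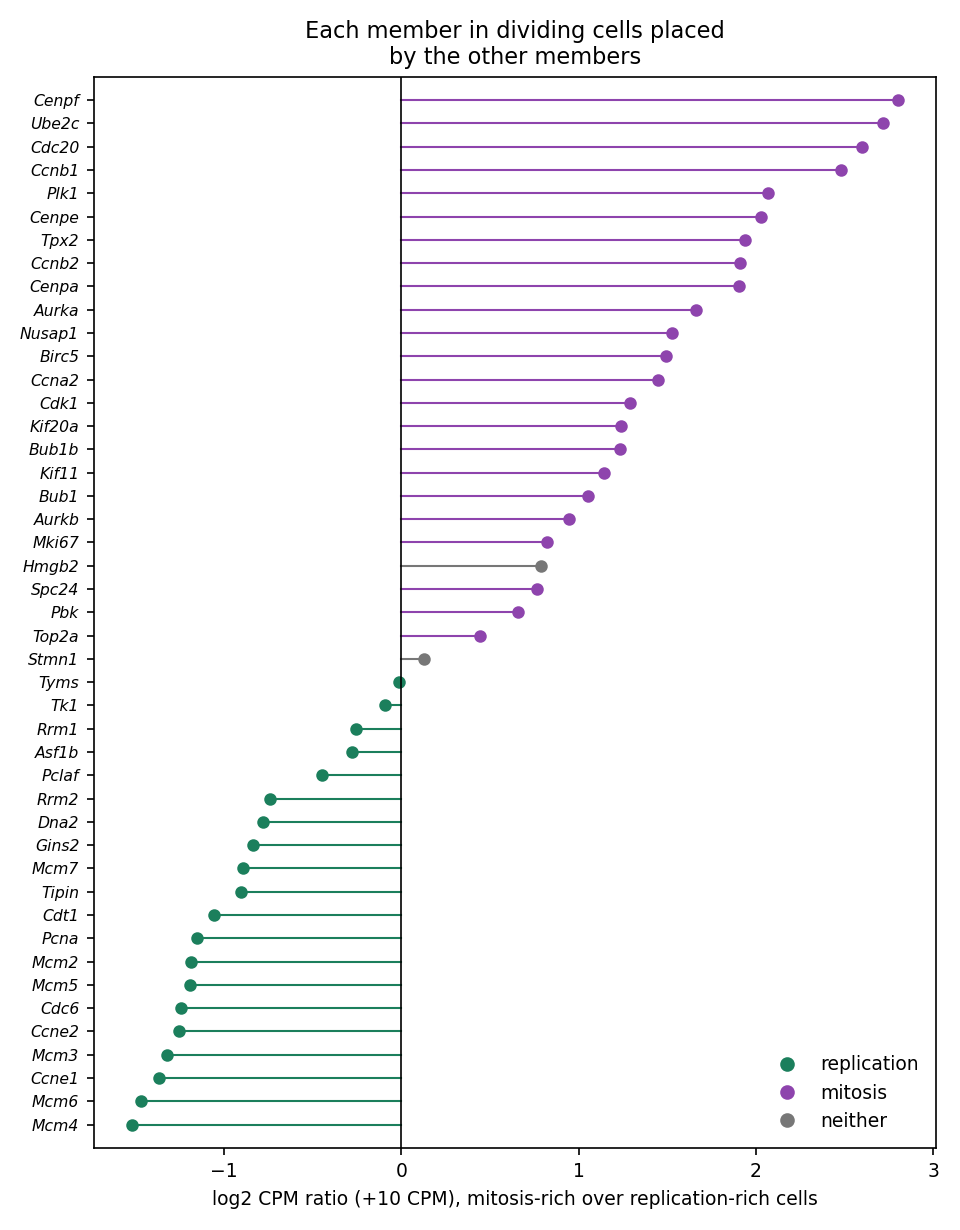
Log2 CPM ratio (10 CPM added) of each member between mitosis-rich and replication-rich dividing cells of all types, where the member itself had no part in placing the cells. Replication members (green) run from -1.52 (Mcm4) to -0.01 (Tyms), and mitosis members (purple) from 0.44 (Top2a) to 2.80 (Cenpf); Stmn1 and Hmgb2 (grey) belong to neither group.

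Other genes of the cycle that are not members were mostly higher in the dividing cells, in every mouse for some sets more than for others. Of 44 further replication and mitosis genes, 37 were higher in dividing than in member-free cells of cluster 14 in each of 8 mice, and 40 of 44 were higher in plasma cells in each of 7 mice. The count was 42 in B progenitors and 32 in macrophages (4 mice each), but 21 in T cells and 17 in cluster 16 (7 mice each). No such count was made over all genes, and the dividing cells were themselves chosen by genes of the cycle. Among 40 regulators, 6 of 39 measured ones were higher and 1 lower in every mouse in cluster 14, and 29 were higher with mice pooled. In every mouse, 18 of 39 were higher and 3 lower in B progenitors, 17 and 3 of 39 in macrophages and 16 and 0 of 39 in plasma cells. The counts were 5 and 1 of 40 in T cells and 3 and 4 of 38 in cluster 16. Foxm1, the mitotic transcription factor, had 35.8 CPM in dividing and 1.08 CPM in member-free cells of cluster 14, and E2f8, an E2F repressor, 34.1 and 1.20 CPM. Cdkn1a, the CDK inhibitor p21, lay the other way at 91.0 and 315 CPM in cluster 14 (lower in 8 of 8 mice) and 80.9 and 500 CPM in cluster 16 (lower in 7 of 7).

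Most markers of differentiation were lower in the dividing cells of cluster 14. All 3 goblet, both deep crypt secretory, both enteroendocrine and 2 of 3 enterocyte markers were lower in 8 of 8 mice, and 0 of 2 tuft markers were. Muc2 had 2605 against 10924 CPM, the goblet peptide Tff3 184 against 9118 CPM and the enteroendocrine granin Chgb 0.385 against 334 CPM. Smoc2, a stem cell marker, was higher at 57.0 against 23.8 CPM in 8 of 8 mice. In cluster 16 only 2 of the 3 enterocyte markers were lower in 7 of 7 mice, among them the carbonic anhydrase Car1 at 33.7 against 1738 CPM. The secretory markers did not follow there. With mice pooled, 2 of 3 goblet markers were higher (median log2 ratio 0.17), as were both deep crypt secretory markers (1.15). Among these, 0 were higher and 0 lower in every mouse. The goblet gene Spink4 had 2081 against 224 CPM and the deep crypt gene Reg4 199.98 against 35.3 CPM, both higher in 6 of 7 mice. In macrophages the complement gene C1qa had 383 against 1340 CPM and Csf1r, the receptor for their growth factor, 204 against 451 CPM (both lower in 4 of 4 mice). Dividing and member-free cells differed in depth, with medians of 12156 UMIs for dividing cells and 5132 UMIs for other deep cells in cluster 14, and the part of depth was not tested.

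Between the genotypes, no member passed the test in any cell set. UMIs were summed per mouse in 12 cell sets with enough cells, and edgeR's quasi-likelihood test was run on all genes with Benjamini-Hochberg adjustment at 0.05. In epithelium 0 of 45 members were called, as were 0% of all 11723 genes tested. At an unadjusted edgeR p under 0.05 there were 0 members and 96 of all genes, and DESeq2 called 0 of either. All p-values measure the spread between mice.

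In epithelium the spread between mice was wider than the difference between genotypes. The licensing and fork member with the highest epithelial CPM was Pcna, which measured 22.1, 16.9, 40.1 and 45.3 CPM in KO-labelled mice 2, 3, 6 and 7 and 19.4, 20.03, 31.6 and 28.3 CPM in WT-labelled mice 1, 4, 5 and 8. Mice 5 to 8 of either genotype were higher than mice 1 to 4, and the genotypes overlapped. The log2 fold change of Pcna was 0.31 ± 0.19 (SE; edgeR adjusted p = 0.9999), with means of 31.1 ± 13.7 and 24.8 ± 6.05 CPM (SD, n = 4 each).

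Tyms, the leading nucleotide synthesis member, had 8.18, 11.4, 31.0 and 34.6 CPM in the KO-labelled and 11.3, 15.6, 31.3 and 25.7 CPM in the WT-labelled mice, again higher in mice 5 to 8. The S phase cyclin Ccne2 had 1.89, 2.31, 2.86 and 5.09 CPM against 2.24, 3.78, 2.49 and 2.94 CPM. Both overlapped, with log2 fold changes of -0.05 ± 0.29 and 0.04 ± 0.30 (SE). Cdc6 had the smallest unadjusted p of the epithelial members. It was sparse, at 0.839, 0.243, 1.43 and 2.28 CPM in the KO-labelled and 1.49, 2.49, 2.17 and 1.65 CPM in the WT-labelled mice. KO-labelled mice 2, 3 and 6 lay below all WT-labelled ones and mouse 7 among them, and the log2 fold change was -0.79 ± 0.46 (SE; edgeR unadjusted p = 0.117, adjusted p = 0.9999).

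The 4 mitosis members that led their role groups had their lowest epithelial values in KO-labelled mouse 2. Mki67 measured 11.4, 29.0, 84.2 and 62.0 CPM in KO-labelled mice 2, 3, 6 and 7 and 44.4, 31.6, 104 and 75.1 CPM in WT-labelled mice 1, 4, 5 and 8. The log2 fold change was -0.54 ± 0.39 (SE; edgeR adjusted p = 0.9999). Ube2c measured 7.34, 17.04, 74.4 and 49.1 CPM against 20.9, 19.1, 78.4 and 68.5 CPM, with a log2 fold change of -0.41 ± 0.51.

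Cenpf measured 6.50, 20.8, 51.6 and 23.7 CPM in the KO-labelled and 26.1, 15.1, 61.0 and 44.2 CPM in the WT-labelled mice, with a log2 fold change of -0.56 ± 0.43 (SE). Ccnb2, cyclin B2, measured 2.20, 8.40, 31.2 and 20.2 CPM against 10.3, 7.201, 31.9 and 23.2 CPM, with -0.33 ± 0.52. The groups overlapped for each of these 4 genes. Of the 23 mitosis members, 22 had a lower mean fit in KO-labelled epithelium, with a median log2 fold change of -0.41, while 8 of 20 replication members did, with a median of 0.04. The median over all genes tested was 0.00, and none of these 43 members passed. Over all 45 members the median was -0.10, and it was -0.38 without mouse 7, 0.04 without mouse 3 and 0.12 without mouse 5, so its sign rested on single mice.

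**Figure D4:**
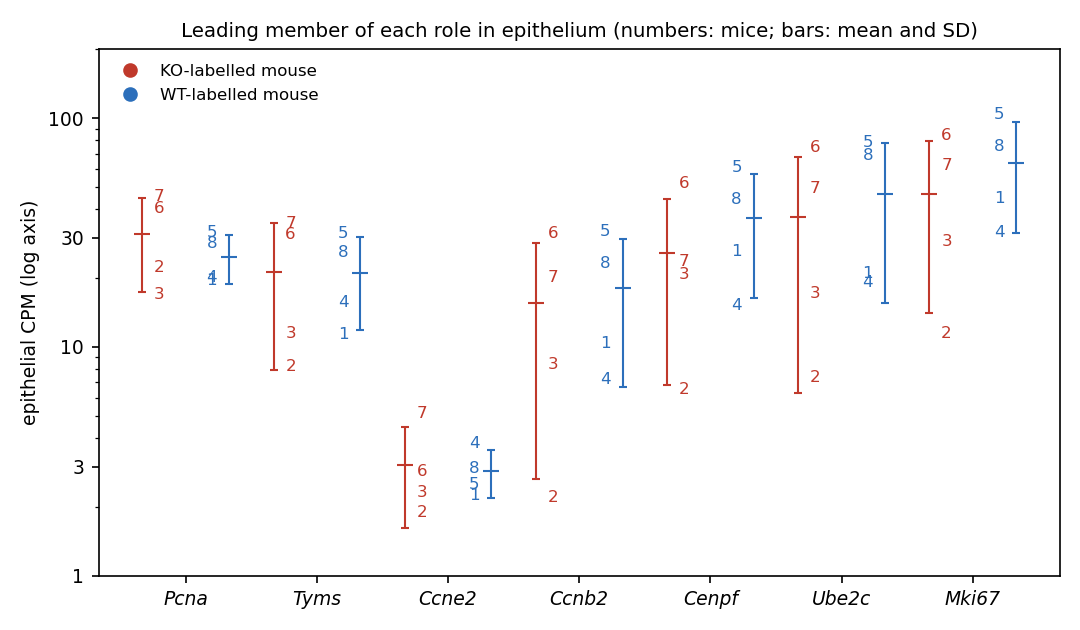
Epithelial CPM (log axis) of the leading member of each role group, with each number marking that mouse, red KO-labelled and blue WT-labelled, and bars giving mean and SD (n = 4 each). Mouse 2 has the lowest Ccnb2, Cenpf, Ube2c and Mki67, and the genotypes overlap for all 7 genes.

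In the epithelial cluster 14, 0 of 41 members tested were called, as were 0% of all 9109 genes. At an unadjusted edgeR p under 0.05 there were 0 members and 325 of all genes, and DESeq2 called 0 members and 2 genes. All 23 mitosis members had a negative log2 fold change, with a median of -0.43, and 10 of the 16 replication members tested did, with a median of -0.01. Over the 41 members the median was -0.18, and without mouse 3 it turned to 0.12, with 23 members higher and 20 lower. Without mouse 6, 14 members had an unadjusted edgeR p under 0.05. The share of dividing cells was 7.32, 7.07, 17.7 and 18.75% in KO-labelled mice 2, 3, 6 and 7 and 26.2, 12.8, 18.96 and 26.7% in WT-labelled mice 1, 4, 5 and 8. The means were 12.7 ± 6.39 and 21.2 ± 6.59% (SD, n = 4 each), with the groups overlapping. The difference was -12.3 percentage points within mice 1 to 4 and -4.57 within mice 5 to 8.

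In cluster 16, 0 of 18 members were called, as were 0% of all 2693 genes, with 0 members and 116 genes at an unadjusted edgeR p under 0.05 and 0 of either called by DESeq2. The dividing share was 0, 26.8, 37.2 and 29.0% in the KO-labelled and 32.3, 15.5, 28.0 and 18.2% in the WT-labelled mice. Mouse 2 had 0 dividing cells of 27, and the other KO-labelled mice lay above WT-labelled mice 4 and 8 and on both sides of mouse 5, with overlap. Over the whole epithelium it averaged 3.80 ± 3.59% in the KO-labelled and 3.64 ± 2.23% in the WT-labelled group (SD, n = 4 each). It stood at 0.246 to 1.76% in mice 1 to 4 and 5.50 to 7.06% in mice 5 to 8, alongside the mitochondrial shares given above, whose part in it was not tested. Within mice 1 to 4 the genotypes differed by -0.99 and within mice 5 to 8 by 1.32 percentage points.

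Cluster 18 passed 1 member through the filter, Hmgb2, with a log2 fold change of -1.09 ± 0.35 (SE; edgeR unadjusted p = 0.0102, adjusted p = 0.281). None of the 1164 genes were called (0%), 124 had an unadjusted edgeR p under 0.05, and DESeq2 called 0 members and 1 gene. Its dividing share was 16.4% in WT-labelled mouse 8 and 0 to 7.41% in the other 6 mice used, and without mouse 8 the genotypes differed by -4.47 percentage points.

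In B cells, 0 of 45 members were called, as were 0% of all 10444 genes, and DESeq2 called 0 of either. At an unadjusted edgeR p under 0.05 there were 5 members and 109 of all genes. The 5 became 2 without mouse 1, 11 without mouse 6 and 16 without mouse 4. The fitted fold changes were negative for 41 members, with a median of -0.43 against 0.00 over all genes. Dna2 measured 2.18, 2.84, 2.54 and 1.43 CPM in KO-labelled mice 2, 3, 6 and 7 and 8.64, 4.35, 2.99 and 3.87 CPM in WT-labelled mice 1, 4, 5 and 8. The groups did not overlap, and the log2 fold change was -1.13 ± 0.34 (SE; edgeR unadjusted p = 0.00833, adjusted p = 0.9999). Stmn1 measured 87.6, 67.3, 104 and 75.4 CPM against 169, 116, 92.6 and 163 CPM, with mouse 5 below mouse 6, and a log2 fold change of -0.71 ± 0.24 (SE; edgeR unadjusted p = 0.0155, adjusted p = 0.9999). The other 3 were Plk1 (-1.26), Mcm2 (-0.57) and Mcm5 (-0.69), named after their values were seen.

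B progenitors were unevenly spread over the mice. Those with 1000 or more UMIs numbered 26, 19, 31 and 1 in KO-labelled mice 2, 3, 6 and 7 and 114, 63, 58 and 0 in WT-labelled mice 1, 4, 5 and 8. All B cells of that depth numbered 1353, 1354, 1912 and 1442 in the KO-labelled and 1531, 3196, 1785 and 165 in the WT-labelled mice. The progenitor counts are therefore not shares, and their difference between genotypes was not tested. Within B progenitors the replication members summed to 3177 and 3437 CPM in the KO-labelled mice 2 and 6 and 3099, 2972 and 3019 CPM in the WT-labelled mice 1, 4 and 5. The mitosis members summed to 4839 and 5449 CPM in the former and 3436, 3710 and 3788 CPM in the latter, without overlap. With 2 mice in a group and 26 and 31 cells behind them, no test was run. In mature B cells the KO-labelled and WT-labelled groups had replication sums of 289 ± 16.6 and 299 ± 58.9 CPM and mitosis sums of 170 ± 27.3 and 199 ± 32.9 CPM (SD, n = 4 each), respectively. In such sums, fewer dividing cells and less RNA per cell cannot be told apart, and the part of B progenitors in the B cell values was not tested. The dividing share of B cells was 1.92, 2.29, 2.98 and 2.91% in KO-labelled and 5.75, 2.32, 3.14 and 7.27% in WT-labelled mice, with overlap, and 0.803 ± 0.151 against 0.866 ± 0.266% in mature B cells. The value of WT-labelled mouse 8 rested on 12 of 165 cells. Plasma cells made up 77 of those 165 cells and 11 of the 12 dividing ones.

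In plasma cells, 0 of 37 members were called, as were 0% of all 6879 genes, and DESeq2 called 0 of either. At an unadjusted edgeR p under 0.05 there were 1 member (Rrm2, log2 fold change 0.64 ± 0.26 SE) and 193 of all genes. Dividing plasma cells averaged 6.81 ± 3.17% in the KO-labelled and 9.10 ± 4.46% in the WT-labelled group (SD, n = 4 each), with overlap.

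In T cells, 0 of 30 members were called, as were 0% of all 8706 genes, with 1 member and 157 of all genes at an unadjusted edgeR p under 0.05 and 0 of either called by DESeq2. Nusap1, a spindle-associated protein, measured 17.3, 6.08, 11.6 and 17.1 CPM in KO-labelled and 4.70, 4.60, 11.3 and 5.77 CPM in WT-labelled mice. WT-labelled mouse 5 lay among the KO-labelled values, and the log2 fold change was 0.93 ± 0.41 (SE; edgeR unadjusted p = 0.0387, adjusted p = 0.9999). Cdt1 measured 18.4, 39.9, 25.2 and 29.4 CPM against 20.4, 22.98, 24.6 and 17.3 CPM, with overlap and a log2 fold change of 0.37 ± 0.24 (SE; edgeR unadjusted p = 0.144). In inactive T cells, 0 of 6 members were called, as were 0% of 3262 genes, with 1 member (Stmn1, -1.18 ± 0.54 SE) and 71 of all genes at an unadjusted edgeR p under 0.05 and 0 of either by DESeq2.

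In macrophages, 0 of 16 members were called, against 0.111% of all 5407 genes, and DESeq2 called 0 members and 7 genes. At an unadjusted edgeR p under 0.05 there were 3 members and 147 of all genes, and 1 member without mouse 4 or without mouse 6. Mouse 8 had too few macrophages and is not in the fit. The 3 were Pclaf, Stmn1 and Ube2c, named after their values were seen. Pclaf measured 96.0, 99.0, 92.0 and 68.9 CPM in KO-labelled mice 2, 3, 6 and 7 and 12.7, 23.8 and 43.1 CPM in WT-labelled mice 1, 4 and 5. The groups did not overlap among the mice fitted, and the log2 fold change was 1.34 ± 0.31 (SE; edgeR unadjusted p = 0.0010, adjusted p = 0.540). In the 7 macrophages of WT-labelled mouse 8, outside the fit, Pclaf stood at 236 CPM, above every KO-labelled mouse. Ube2c measured 15.5, 47.3, 113 and 34.4 CPM against 31.7, 16.6 and 24.1 CPM, with overlap.

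The dividing share of macrophages was 6.00, 12.5, 7.69 and 9.17% in KO-labelled and 3.57, 2.82 and 5.64% in WT-labelled mice, without overlap. These shares rested on 3 of 50, 5 of 40, 8 of 104 and 11 of 120 cells in KO-labelled mice 2, 3, 6 and 7. In WT-labelled mice 1, 4 and 5 they rested on 1 of 28, 2 of 71 and 11 of 195 cells. WT-labelled mouse 8, where 1 of 5 cells was dividing, had too few cells and is not among these values. The difference of 4.83 percentage points depended on the count: it was 0.13 with 2 members asked for, 1.45 after thinning to 500 UMIs and -11.1 without thinning. It was 6.06 within mice 1 to 4 and 2.79 within mice 5 to 8. The 3 plasma cell markers listed (Jchain, Sdc1 and Mzb1) summed to 41.3 to 90.4 CPM in KO-labelled and 4262 to 5537 CPM in WT-labelled macrophages. These markers held over 1% of UMIs in 11 WT-labelled cells and in 0 KO-labelled cells. Without those cells the shares were 8.84 ± 2.76% (SD, n = 4) and 3.97 ± 1.27% (n = 3), and Pclaf stood at 7.57, 25.6 and 48.9 CPM in WT-labelled mice 1, 4 and 5.

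In fibroblasts, 13 of 45 members passed the filter on low counts and 0 were called, as were 0% of all 11023 genes, with 0 members and 197 of all genes at an unadjusted edgeR p under 0.05 and 0 of either by DESeq2. Gins2, a helicase cofactor, measured 3.55, 1.47, 2.07 and 1.80 CPM in KO-labelled and 3.45, 4.04, 4.19 and 2.13 CPM in WT-labelled mice, with overlap and a log2 fold change of -0.76 ± 0.37 (SE; edgeR unadjusted p = 0.0677). Mcm3 measured 4.36, 6.09, 2.85 and 2.70 CPM against 7.58, 5.77, 6.18 and 6.38 CPM, with mouse 3 among the WT-labelled values and -0.63 ± 0.32 (SE; edgeR unadjusted p = 0.0762). In lymphatic endothelium 0 of 1 member was called, against 0.146% of 3425 genes. In blood endothelium no member passed the filter, and 0% of 1533 genes were called.

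Other genes of the pathway gave the same counts. Of 40 regulators, 37 were tested in epithelium, 36 in B cells, 27 in T cells and 17 in macrophages, and edgeR and DESeq2 called 0 in each, with 0 at an unadjusted edgeR p under 0.05. Of 44 further replication and mitosis genes, 44, 43, 27 and 12 were tested in these sets and 0 called by either tool, with 1, 9, 0 and 1 at an unadjusted edgeR p under 0.05, where all genes had 96 of 11723, 109 of 10444, 157 of 8706 and 147 of 5407. In B cells 42 of the 43 had a negative log2 fold change, with a median of -0.36, and in epithelium 35 of 44, with a median of -0.21.

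**Figure D5:**
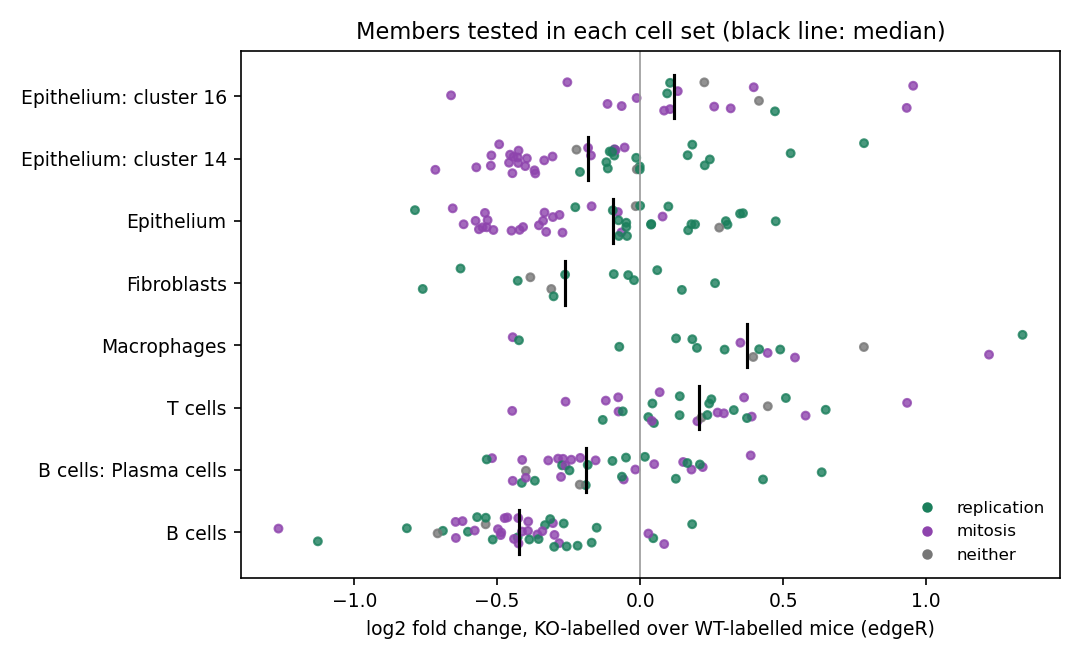
Log2 fold change, KO-labelled over WT-labelled (x axis, edgeR), of each member that passed the filter in 8 cell sets; green points are replication, purple mitosis and grey neither, and black lines are medians. In epithelium and cluster 14 the mitosis members lie to the left of the replication members (medians -0.41 against 0.04 and -0.43 against -0.01), and no point passed the adjusted threshold.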

How the data were processed

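Single-cell RNA-seq libraries of distal colonic mucosa from 8 separate mice were analysed. The counts are UMIs per gene and cell as the authors deposited them, made with Cell Ranger 3.0.2 against mm10, per the submitters' processing notes. The authors' cell table gave cell classes, subtypes, clusters and a size factor, a ratio of a cell's depth to the others, and UMAP coordinates, a score without units that was not used. Its rows, sorted by mouse and barcode, matched the matrix: all 53080 deposited size factors were equal within 1e-06. Cells the authors named doublets were left out.

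UMIs were summed per mouse and cell set (at least 20 cells per mouse, 3 mice per group) and fitted in R 4.3.3 by the quasi-likelihood test of edgeR 4.0.16, with TMM scaling, its filterByExpr filter and a threshold of 0.05 after Benjamini-Hochberg adjustment over all genes. DESeq2 1.42.0, RLE factors, no filter, low-mitochondrial cells, other counts of dividing cells and leaving out each mouse were alternatives. Cells were thinned to 1000 UMIs with seed 1 and Python 3.11.15. Genes named per comparison were the member with the highest epithelial CPM of each role any member past the threshold, and the 2 members with the smallest unadjusted p in epithelium, B cells, T cells and fibroblasts. The members and lists were chosen with earlier results of these data known. Depth per mouse is given in the report.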

Additional observations from a re-analysis of the deposited data

Results flagged for a closer look

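Of 83 groups of mice examined, 6 had a mouse apart from the rest of its group. Chance gives about 1 in 20 groups where values are continuous and groups independent, but these groups share mice. A group with 1 mouse above 0 and the others at 0 is always flagged, as with the fibroblast and lymphatic shares below. In the WT-labelled group, mouse 1 had 0.604% dividing fibroblasts (2 of 331 cells) and the other mice 0. In the KO-labelled group, mouse 7 had 1.0% dividing cells in lymphatic endothelium, which was 1 cell, and the other mice 0. KO-labelled mouse 2 had 678 CPM of replication members in macrophages, against 505 to 525 CPM in the others. It also had 189 CPM in inactive T cells, against 379 to 409 CPM. WT-labelled mouse 8 had 2.885% dividing T cells, against 1.95 to 2.07%, and 1332 CPM of mitosis members in cluster 18, against 109.9 to 260 CPM.

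The cells named doublets, used in no comparison, also held dividing cells. Among epithelial doublets 8 of 416 passed (1.92%, 95% exact interval 0.834 to 3.75%), above the 0.721% that a count of 0 allows. Among mesenchymal doublets 13 of 194 passed (6.70%, 3.62 to 11.2%), above 1.55%.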

How the results depend on the processing

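Alternatives were DESeq2, RLE factors, no filter on low counts, cells under 50% mitochondrial UMIs, mitochondrial genes left out, other counts of dividing cells, and each mouse left out; a term for mice 1 to 4 against 5 to 8, values within each of these sets, and macrophages without plasma-marker-rich cells were added after seeing the data. The count of called members was 0 in all of them except without the filter, which gave 1 in macrophages (Pclaf, log2 fold change 1.34) and 4 in cluster 18; the cause was not tested. No paired analysis was possible because the mouse numbers are unique to each mouse and no number is shared between the genotypes.

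With each mouse left out in turn, the epithelial log2 fold change of Tyms ran from -0.24 to 0.14 (0.10 without mouse 2, 0.09 without mouse 3, 0.14 without mouse 5), that of Ccne2 from -0.13 to 0.25 (-0.09 without mouse 5, -0.13 without mouse 7, -0.05 without mouse 8) and that of Ccnb2 from -0.83 to 0.015 (0.015 without mouse 5), each crossing 0. The median member log2 fold change in inactive T cells ran from -0.15 to 0.46.

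The mean dividing share moved with the count. Asking for 2 members gave 8.89% in B cells, 5.32% in blood endothelium, 1.19% in fibroblasts, 1.82% in lymphatics, 11.5% in macrophages, 8.81% in T cells, 11.2% in inactive T cells and 68.7% in B progenitors, and asking for 4 gave 51.9% in B progenitors. Thinning to 500 UMIs gave 3.38% in macrophages, 1.36% in T cells, 11.4% in cluster 16, 8.03% in cluster 14, 3.60% in plasma cells and 47.15% in B progenitors. Without thinning it was 10.1% in B cells, 3.02% in blood endothelium, 8.67% in epithelium, 3.55% in fibroblasts, 5.21% in lymphatics, 24.6% in macrophages, 9.74% in T cells, 35.25% in cluster 14, 32.2% in plasma cells and 83.4% in B progenitors.

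The KO minus WT difference in that share also moved, in percentage points. With 2 members it was 1.40 in blood endothelium, 1.06 in lymphatics, 0.13 in macrophages and -1.71 in T cells. With thinning to 500 UMIs it was 1.45 in macrophages, -2.22 in cluster 18 and 16.2 in B progenitors. Without thinning it was -5.08 in blood endothelium, -0.41 in fibroblasts, 2.13 in lymphatics, -11.1 in macrophages and 12.6 in B progenitors. Within mice 1 to 4 it was -2.25 in cluster 18, and within mice 5 to 8 -11.9 in cluster 18 and -1.001 in B progenitors. Fewer than 1000 UMIs per cell kept 585 of 1215 cells of cluster 16 out of the dividing share.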
